A study of Macaca mulatta with 9 samples.

Results

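The genes described here are 10 that encode secreted proteins of the liver and yolk sac: the fibrinogen chains FGA, FGB and FGG, the apolipoproteins APOA1, APOA2 and APOC3, the carriers TTR and RBP4, and the fetal and adult plasma proteins AFP and ALB. They were chosen by symbol, with their signals in these samples already known, from 19762 genes that the array annotation names, and 19 probe sets carry their names. They were measured in rhesus macaque cells with Affymetrix Rhesus genome arrays. The embryoid bodies (EBs), aggregates of embryonic stem (ES) cells left to differentiate spontaneously for 30 days without FGF2, were pooled for 1 array, and the labels do not say from which ES line they came. For the EB culture the labels give 2 accounts, suspension throughout or 1 week of suspension followed by gelatin-coated dishes. The ES cells were of 5 lines, ORMES9, ORMES10 and ORMES13 with 1 array each, ORMES6 with 3 biological replicates (A, B and C) and ORMES7 with 1 array. All ES lines were kept with FGF2 and serum on feeder cells, which were mouse embryonic fibroblasts, and RNA came from colonies that looked good and were lifted by hand. The fibroblasts were adult skin fibroblasts, harvested when confluent, on 1 array.

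In the embryo these proteins are made first by the visceral endoderm, the epithelium of the yolk sac, and later by hepatocytes, which release most of the proteins of adult plasma. Fibrinogen is built from chains of 3 genes and is cleaved by thrombin into the fibrin of a clot. Apolipoproteins carry lipids through the blood, TTR and RBP4 carry thyroid hormone and retinol, and AFP is the albumin-like protein of the fetus whose place ALB takes after birth. Transcription factors such as HNF4A, the FOXA proteins and GATA4 drive many of these genes in endoderm.

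Values are MAS5 signals on a linear scale, scaled by the authors so that arrays can be compared, and differences are on the log2(signal + 16) scale with their standard error (SE). Every difference against a lone array takes its error from the spread between the 5 ES lines, drawn by the fit toward the spread of genes of like level. In such bulk RNA, fewer cells of a type and less RNA per cell cannot be told apart. The labels do not name a liver sample, and the defining hepatocyte factor HNF4A was Absent on the arrays of all 5 lines with a detection p-value (Present below 0.05, Absent above 0.065; for ORMES6 1 replicate has one).

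Of the 10 genes, FGA, FGB, FGG, APOA1, TTR and AFP were high in some ES lines and low in others, while APOA2 and ALB were low throughout, APOC3 gave probe sets that disagreed, and RBP4 was high in the fibroblasts alone among these 9 arrays. The summed signal of the 10 genes was 734 in the EBs. It was 4554 in ORMES9, 4846 in ORMES10 and 9533 in ORMES13, against 687 to 847 in the ORMES6 replicates and 1501 in ORMES7. In the fibroblasts it was 2296. The mean over the 10 genes of log2(signal + 16) was 5.58 in EBs, 7.15 in ORMES9, 7.94 in ORMES10, 8.35 in ORMES13, 5.51 in ORMES6, 5.66 in ORMES7 and 6.04 in fibroblasts. By this mean the EBs stood at the level of the 2 lowest lines. For FGA, FGB, FGG, APOA1, TTR and AFP alone the summed signal was 544 in EBs, above the 178 to 200 in the ORMES6 replicates and 300 in ORMES7. In ORMES9, ORMES10 and ORMES13 it was 4040, 3730 and 8613. The sum of 10 also holds APOC3, with 443 to 1148 on the ORMES6 and ORMES7 arrays and 152 in EBs. The number of these genes called Present was 6 in ORMES9, 7 in ORMES10 and 8 in ORMES13, against 1 in ORMES6 and 2 in ORMES7. The share of all genes Present on each array is not set beside these counts. As the genes were chosen with their signals known, nothing is read from them. Detection is unknown for the EBs.

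**Figure D1:**
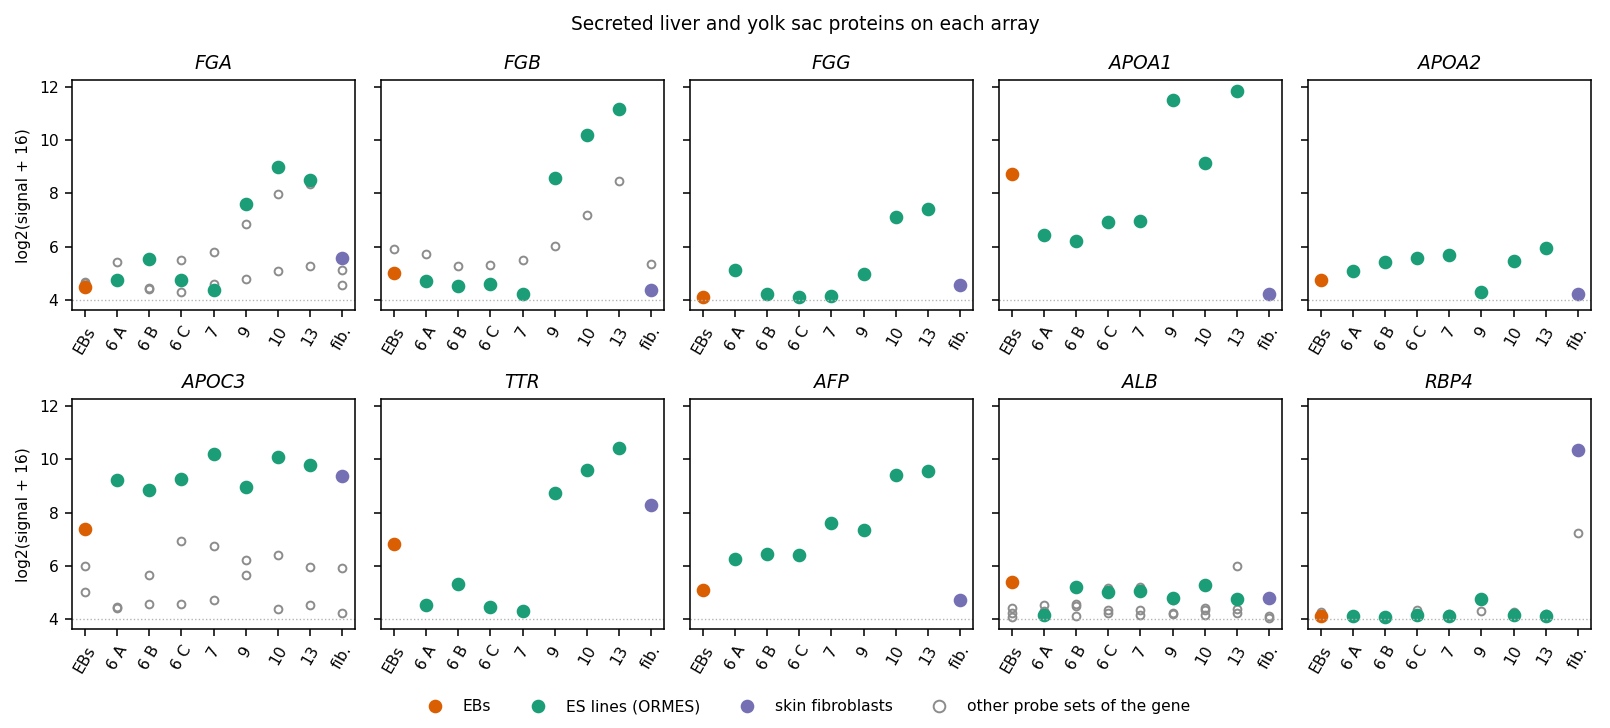
Level of each of the 10 genes on each of the 9 arrays, as log2(signal + 16), with EBs on the left, the ES lines by ORMES number (6 A to 13) and fibroblasts (fib.) on the right. Filled points are the probe set that stands for the gene and open grey points its other probe sets, and the dotted line marks a signal of 0. The 3 fibrinogen genes and TTR stand near the line in ORMES7 and reach their highest points in ORMES10 or ORMES13, and RBP4 leaves the line clearly in fibroblasts only.

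FGB encodes the beta chain of fibrinogen. Its signal was 16.2 in EBs, 368 in ORMES9, 1143 in ORMES10 and 2312 in ORMES13, against 9.8, 6.8 and 7.9 in the ORMES6 replicates A, B and C and 2.6 in ORMES7, and it was 4.6 in fibroblasts. All 3 of the high arrays lay above the other 6, and FGB was Present on these 3 and Absent on ORMES6, ORMES7 and the fibroblasts. A second FGB probe set was dimmer, with 44.0 in EBs, 49.7, 128 and 334 in ORMES9, ORMES10 and ORMES13, 23.1 to 36.4 in ORMES6 and ORMES7, and 25.2 in fibroblasts. It kept the order of the 3 high lines, with ORMES9 only just above the EBs. The range between the line means was 6.97 log2 units, the widest of the 10 genes, while the SD of the 3 ORMES6 replicates was 0.09.

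FGA encodes the alpha chain. Its signal was 6.3 in EBs, 178 in ORMES9, 488 in ORMES10 and 347 in ORMES13, against 10.7, 30.7 and 10.9 in the ORMES6 replicates and 4.7 in ORMES7, and it was 31.3 in fibroblasts. The same 3 lines lay above all other arrays, here with ORMES10 and not ORMES13 at the top. In a second FGA probe set the order was 99.9 in ORMES9, 239 in ORMES10 and 314 in ORMES13, so the order of those last 2 lines depended on the probe set. The remaining FGA probe set stayed between 3.9 and 22.6 on all 9 arrays. FGG encodes the gamma chain, and its signal was 1.0 in EBs, 15.1 in ORMES9, 122 in ORMES10 and 154 in ORMES13, against 19.2, 2.6 and 1.2 in the ORMES6 replicates, 1.7 in ORMES7 and 7.5 in fibroblasts. FGG was thus high in ORMES10 and ORMES13 only, and ORMES9, where it was Absent, lay below ORMES6 replicate A.

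APOA1 is the main protein of high-density lipoprotein. Its signal was 405 in EBs, 2927 in ORMES9, 552 in ORMES10 and 3705 in ORMES13, against 71.0, 59.1 and 104 in the ORMES6 replicates and 109 in ORMES7, and it was 2.7 in fibroblasts. The EBs lay below ORMES9, ORMES10 and ORMES13 and above every ORMES6 and ORMES7 array, as they did for FGB and TTR. APOA1 differed from the fibrinogen genes in the order of the lines, with ORMES9 above ORMES10. APOA2, the second protein of that particle, had 10.5 in EBs, 3.6 in ORMES9, 27.6 in ORMES10 and 45.3 in ORMES13, against 18.4, 27.0 and 31.7 in ORMES6 replicates and 35.0 in ORMES7, and 2.5 in fibroblasts. It was Present in ORMES13 alone among the lines, and ORMES10 lay among the ORMES6 and ORMES7 arrays.

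APOC3 is an inhibitor of lipoprotein lipase. The probe set that stands for it is named only by a sequence-tagged site, and its signal was 152 in EBs, 488 in ORMES9, 1064 in ORMES10 and 863 in ORMES13, against 574, 443 and 597 in the ORMES6 replicates, 1148 in ORMES7 and 640 in fibroblasts. This probe set was Present in ORMES9, ORMES10 and ORMES13 and Absent in ORMES6. In ORMES7, where its signal was highest, it was neither (detection p-value 0.0604). The EBs had the lowest value, and fibroblasts lay within the range of the ES arrays. The other APOC3 probe sets did not show this. One of them ranged from 5.5 to 108 over the ES arrays with 47.4 in EBs, and the other had 16.2 in EBs, 4.6 to 34.9 in the ES arrays and 2.5 in fibroblasts.

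TTR encodes transthyretin. Its signal was 97.3 in EBs, 406 in ORMES9, 753 in ORMES10 and 1353 in ORMES13, against 7.1, 23.7 and 6.1 in the ORMES6 replicates and 3.7 in ORMES7, and it was 300.2 in fibroblasts. ORMES9, ORMES10 and ORMES13 were the highest arrays, followed by fibroblasts and then EBs, and TTR was Present on those 3 lines and on the fibroblasts and Absent on ORMES6 and ORMES7. RBP4, which binds TTR in plasma, went another way: its signal was 1.2 in EBs, 10.8 in ORMES9, 0.8 to 2.0 on the other ES arrays and 1285 in fibroblasts. The second RBP4 probe set gave 3.4 in EBs, 1.2 to 4.1 on the ES arrays and 135 in fibroblasts. Both RBP4 probe sets were Absent on all 5 lines. Against a floor on each of the ORMES7, ORMES9, ORMES10 and ORMES13 arrays, the lowest Present signal or the RBP4 signal itself where higher, RBP4 in fibroblasts was at least 119-fold (ORMES9) to 292-fold (ORMES10) higher. This floor is a minimum over probe sets, not a detection limit.

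AFP had a signal of 18.2 in EBs, 147 in ORMES9, 672 in ORMES10 and 742 in ORMES13, against 60.7, 72.0 and 69.6 in the ORMES6 replicates, 178 in ORMES7 and 10.5 in fibroblasts. It was Present in all 5 lines, also in ORMES6 and ORMES7, the only 1 of the 10 genes of which this holds. At its low signal in fibroblasts AFP was called Present too (detection p-value 0.0219). The EBs lay below every ES array and above the fibroblasts, and ORMES9 lay below ORMES7. ALB had 4 probe sets, and the one that stands for the gene gave 25.9 in EBs, 2.0 to 23.0 on the ES arrays and 11.7 in fibroblasts, Absent on all 5 lines. The highest ALB signal on any array was 47.5, in ORMES13 with another probe set, which was Present there and Absent on the other lines.

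**Figure D2:**
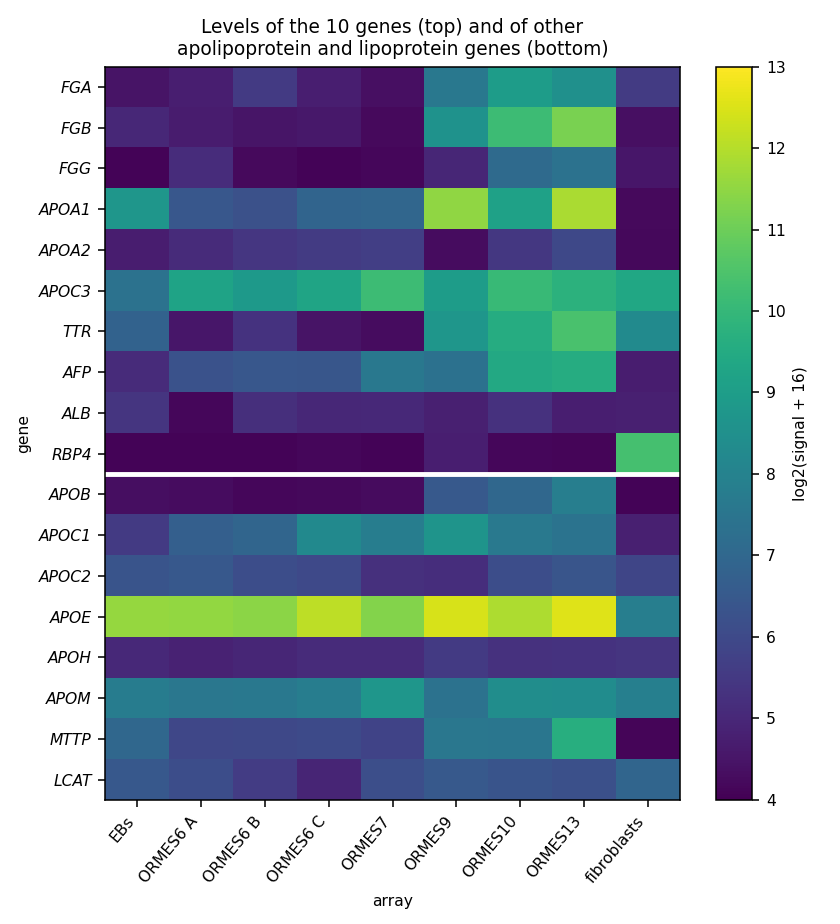
Levels as log2(signal + 16), shown by colour, of the 10 genes (above the white line) and of 8 other apolipoprotein and lipoprotein genes Present in at least 1 ES line (below it) on the 9 arrays, EBs on the left and fibroblasts on the right. Colours are to be read along a row, since signals of different probe sets have no common scale. APOB and MTTP share with FGB and TTR the brighter columns of ORMES9, ORMES10 and ORMES13.

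For all genes the lines were compared by an F test on the 7 ES arrays. Its error came from the 3 ORMES6 replicates, drawn toward that of genes of like level. FGB, APOA1 and TTR passed it, 3 of the 10 genes, and 0.197% of all genes did. Because the genes were chosen with these values known, nothing is read from this count. It was 2 with an offset of 1 or with quantile normalization, where TTR did not pass, 1 without ORMES13 and 7 without ORMES6 replicate C, and without that replicate 7092 of the 19762 genes passed. By array order, FGA, FGB, APOA1 and TTR (4 of 10) lay in ORMES9, ORMES10 and ORMES13 above every ORMES6 and ORMES7 array, as did 10.8% of all genes. With ORMES9 left out of this condition FGG and AFP joined them (6 of 10), and 17.6% of all genes met it. Both conditions were set after the values were seen.

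The 6 genes that varied between lines were set against each other over the 7 values (5 lines, EBs and fibroblasts), as a description. Over their 15 pairs Pearson's r ran between 0.45 and 0.96, with a median of 0.82, and the points share their arrays. FGA and FGB (0.96) and FGB and FGG (0.93) were the closest pairs, and TTR and AFP (0.45) the least alike, TTR being higher and AFP lower in fibroblasts than in ORMES6. Between the other 4 genes and these 6, the highest r were those of APOA2 and APOC3 with AFP (0.72 and 0.66), and ALB had an r below 0.1 in size with FGB, FGG, APOA1 and AFP.

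Against the ES lines, the EBs were lower in 9 of the 10 differences, and all but those of AFP and APOC3 were smaller than 2 SE. The 3'/5' signal ratio of control genes, which rises as RNA is shortened, moved with this comparison: for actin it was 7.15 in EBs, 22.7 to 66.2 on the ES arrays and 13.1 in fibroblasts, and for GAPDH 1.31 in EBs, 2.05 to 4.22 on the ES arrays and 2.28 in fibroblasts. Its part in the differences was not tested. The EB minus ES difference was -2.41 ± 1.61 for FGA, -2.74 ± 2.44 for FGB and -1.53 ± 1.19 for FGG (SE, 5 lines against 1 array). It was -0.49 ± 1.90 for APOA1, -0.62 ± 0.54 for APOA2 and -0.74 ± 2.17 for TTR, and -0.14 ± 0.33 for RBP4. The spread behind these errors is that between the lines, drawn toward the spread of genes of like level. The SD of the lines themselves on the log2 scale was 3.20 for FGB and 2.83 for TTR. AFP gave -2.97 ± 1.10, APOC3 -2.23 ± 0.49 and ALB 0.46 ± 0.30. APOC3 was the 1 gene of the 10 called at an adjusted p below 0.05, where 5.67% of all genes were called, and the call was lost when its 3 probe sets were averaged (difference -0.73) or when ORMES7, ORMES10, ORMES13 or ORMES6 replicate C was left out. FGG, APOC3 and AFP in EBs lay below all 7 ES arrays (3 of 10 genes, and 21.1% of all genes), and ALB above them (1 of 10, and 21.5% of all genes). FGG had 1.0 in EBs and 1.7 in ORMES7, where it was Absent. For ALB this held with the probe set that stands for the gene, Absent on all 5 lines. Other ALB probe sets had 2.7 and 0.8 in EBs, below all ES arrays (3.8 to 47.5 and 1.1 to 2.9), and 5.6, within their range (2.5 to 20.9). With its probe sets averaged the ALB difference was -0.08. The median difference was -1.13 over the 10 genes and -0.04 over all genes tested.

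Where each line was set against the EBs by itself, the sign depended on the line for FGB, TTR and APOA1, among others. For FGB the ORMES13 level was 6.18 log2 units above that of EBs, while the ORMES7 level was 0.79 and the ORMES6 level 0.42 below it. FGB was Absent in ORMES6 and ORMES7, with signals of 2.6 to 9.8 there and 16.2 in EBs, so its negative signs rest on low signals. TTR lay 3.60 above the EBs in ORMES13, 2.76 in ORMES10 and 1.90 in ORMES9, and the ORMES6 and ORMES7 values minus the EB value were -2.06 and -2.52. For APOA1 the same differences were 3.14, 0.43 and 2.81 for ORMES13, ORMES10 and ORMES9, and -2.19 and -1.76 for ORMES6 and ORMES7. AFP was above the EBs in all 5 lines, by 1.28 in ORMES6 and by 4.47 in ORMES13. FGG (0.06 to 3.32) and APOC3 (1.58 to 2.79) were also above the EBs in all 5 lines. ALB, with the probe set that stands for the gene, was below them in all 5. FGG was Absent in ORMES6, ORMES7 and ORMES9, and ALB on all 5 lines.

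The level of the hybridisation spikes, control RNAs added in a fixed amount, moved with some of these arrays. Their geometric mean signal was 617 in EBs, 683 in ORMES6 A and 701 in ORMES6 B, and between 1013 and 1360 on the other 6 arrays. With log2 of this level as a covariate the EB minus ES difference turned to 1.98 for FGA, 5.00 for FGB, 0.91 for FGG, 7.28 for APOA1, 6.33 for TTR and 0.34 for RBP4, and no gene of the array was called. The EB spike level lay below that of every ES array. These differences thus extend a slope fitted on the 5 lines beyond their range, and their sizes are not reliable. Set against ORMES6 A and B alone, which have a like spike level, the EBs gave differences of 2.38 for APOA1, 1.90 for TTR, 0.41 for FGB and 0.02 for RBP4, all 4 turned in sign. They were 0.70 for ALB, -0.54 for APOA2, -0.66 for FGA, -0.59 for FGG, -1.26 for AFP and -1.63 for APOC3. The part of the spike level in the differences was not tested.

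In the authors' deposited table of log2 ratios, ES over EB for each array, FGB ran between -2.2 and 6.7, TTR between -4.4 and 3.3 and APOA1 between -2.8 and 2.6. The authors' deposited table gave AFP ratios of 1.2 to 4.5, above 0 for all 7 ES arrays. For the probe set that stands for APOC3 here, the authors' deposited table gave 0.1 to 2.1, the lowest being 0.1 for ORMES6 B and 0.2 for ORMES9.

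**Figure D3:**
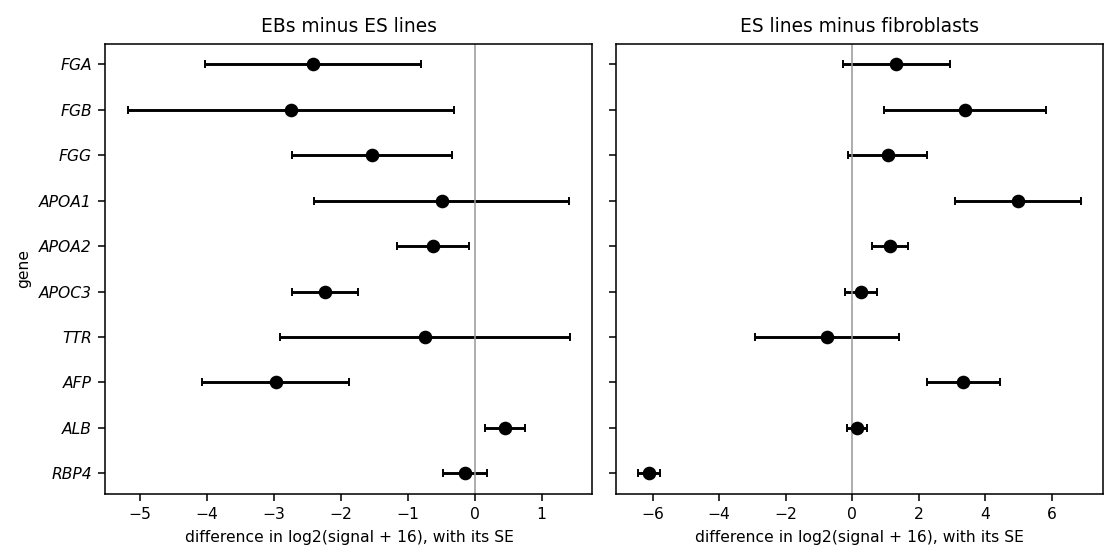
Differences in log2(signal + 16) for the 10 genes, EBs minus ES lines on the left and ES lines minus fibroblasts on the right; points are differences and bars 1 SE, from 5 ES lines and a lone array. The bars of FGB, TTR and APOA1 are the widest, and RBP4 stands far to the left of 0 against fibroblasts.

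Against the fibroblasts, the ES minus fibroblast difference was -6.10 ± 0.33 for RBP4, the only 1 of the 10 genes called, where 20.8% of all genes were called. Since RBP4 was Absent on the ES arrays, this size depends on the offset, and it was -8.61 with an offset of 1 and -4.33 with an offset of 64. APOA1 (4.98 ± 1.90), FGB (3.39 ± 2.44) and AFP (3.34 ± 1.10) had the largest positive differences. FGA (1.33 ± 1.61), APOA2 (1.13 ± 0.54), FGG (1.07 ± 1.19), APOC3 (0.27 ± 0.49) and ALB (0.14 ± 0.30) had smaller ones, and TTR gave -0.75 ± 2.17. The median difference was 1.10 over the 10 genes and 0.25 over all genes tested. Without the ORMES6 line AFP was called as well (3.76), as were AFP (4.42) and APOA1 (7.22) with an offset of 1. On the fibroblast array APOA1, APOA2 and AFP lay below all 7 ES arrays (3 of 10 genes, and 36.3% of all genes) and RBP4 above them (1 of 10, and 18.2% of all genes).

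Between the lone EB and fibroblast arrays only differences are given, with no test. EBs minus fibroblasts was 4.49 for APOA1 and -6.24 for RBP4. It was -1.96 for APOC3 and -1.48 for TTR, and between -1.08 and 0.64 for the other 6 genes.

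For the lists that follow, the shares of all genes called were 5.67% between EBs and ES lines and 20.8% between ES lines and fibroblasts. Other apolipoproteins and the proteins that assemble lipoproteins were measured with 14 genes. Against the ES lines 1 was lower in EBs and none higher (median -0.34), beside 5.67% of all genes called. This gene was APOC1, which is exchanged between lipoproteins, and it fell by 2.24 on the log2 scale (SE 0.52, adjusted p = 0.0451). The APOC1 signal was 30.2 in EBs, between 89.2 and 385 on the ES arrays and 11.7 in fibroblasts, and the call was lost in 5 of 8 fits that left out a line or an ORMES6 replicate. Against the fibroblasts 2 genes were higher in ES lines and none lower, beside 20.8% of all genes called. They were APOE, by 4.13 ± 0.44 (adjusted p = 4.82e-04), and APOC1, by 2.98 ± 0.52 (adjusted p = 0.00499). APOE, the ligand of lipoprotein receptors that many cell types make, had a signal of 3058 in EBs, 2545 to 6041 on the ES arrays and 216 in fibroblasts.

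None of these 14 genes passed the F test between lines, and 3 had an unadjusted p below 0.05, as had 13.6% of all genes. APOB, the structural protein of the low-density particles of liver and yolk sac, had 4.1 in EBs, 75.1 in ORMES9, 113 in ORMES10 and 216 in ORMES13, against 2.0 to 3.5 in ORMES6 and ORMES7 and 1.2 in fibroblasts (F test adjusted p = 0.0570). MTTP, which loads lipid onto APOB, had 111 in EBs, 174, 168 and 774 in the same 3 lines, 39.6 to 48.3 in ORMES6 and ORMES7 and 1.4 in fibroblasts (adjusted p = 0.0681). Both genes had the 3 lines above all ORMES6 and ORMES7 arrays, as had APOF, APOH and LCAT, 5 of the 14 (10.8% of all genes). APOA4, APOA5, APOC4, APOF and LIPC were Present in none of the lines.

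Of the other plasma proteins of the liver 41 of 42 were on the array. In EBs 2 were higher and none lower than in ES lines (median -0.04), where 5.67% of all genes were called. AGT, the precursor of angiotensin, had 244 in EBs, 19.8 to 33.6 on the ES arrays and 2.0 in fibroblasts, a difference of 2.71 ± 0.31 (adjusted p = 0.00502). ITIH1, a chain of inter-alpha-trypsin inhibitor, had 102 in EBs, 2.7 to 34.1 on the ES arrays and 19.6 in fibroblasts, and its call (2.25 ± 0.50, adjusted p = 0.0405) was lost in 5 of 8 fits with a line or replicate left out. In EBs these 2 genes lay above all 7 ES arrays, while the 3 fibrinogen genes lay below ORMES9, ORMES10 and ORMES13. Neither FGA, FGB nor FGG was called between EBs and ES lines.

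Against the fibroblasts 1 of the 41 was higher in ES lines and 2 were lower, where 20.8% of all genes were called. The higher one was AGT (1.14 ± 0.31, adjusted p = 0.0327, lost without ORMES6, ORMES10 or ORMES13), which was Present in ORMES10 and ORMES13 only among the lines. Lower were CP and ITIH3. The copper protein CP had 27.7 in EBs, 3.3 to 25.6 on the ES arrays and 3388 in fibroblasts, a difference of -6.77 ± 0.49 (adjusted p = 8.86e-05), so that with RBP4 it was a second plasma protein high on the fibroblast array. ITIH3 was the other (-2.04 ± 0.42, adjusted p = 0.0104). None of the 41 passed the F test between lines, 8 had an unadjusted p below 0.05 (13.6% of all genes), and 23 were Present in no line, VTN, AMBP, GC and KNG1 among them. AHSG, the fetal plasma protein fetuin-A, had 3.7 in EBs, 163 in ORMES10 and 189 in ORMES13, against 4.8 in ORMES9, 6.2 to 29.8 in ORMES6 and ORMES7, and 3.4 in fibroblasts (F test adjusted p = 0.0725). Like FGG, AHSG was high in ORMES10 and ORMES13 and not in ORMES9. Of the 41 genes 7 lay in ORMES9, ORMES10 and ORMES13 above every ORMES6 and ORMES7 array, as did 10.8% of all genes.

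Of 20 transcription factors of liver and endoderm, 11 lay in ORMES9, ORMES10 and ORMES13 above every ORMES6 and ORMES7 array, as did 10.8% of all genes. HHEX, a homeobox factor of early endoderm and liver bud, was the only one to pass the F test (adjusted p = 0.0319), and 12 of the 20 had an unadjusted p below 0.05 (13.6% of all genes). HHEX had 28.0 in EBs, 3576, 3108 and 1778 in ORMES9, ORMES10 and ORMES13, 141 to 473 in ORMES6 and ORMES7, and 293 in fibroblasts. ORMES10, the highest line for FGA, was not the highest for HHEX.

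FOXA3 was the 1 factor called between EBs and ES lines, lower in EBs (difference -2.0 ± 0.39, adjusted p = 0.0278, lost without ORMES7 or ORMES10), with 102 in EBs and 354 to 670 on the ES arrays. Against the fibroblasts 5 factors were higher in ES lines, with FOXA3 (4.59 ± 0.39), SOX17 (3.76 ± 1.02), NR5A2 (3.57 ± 0.88) and FOXA2 (3.20 ± 0.70) the largest, at adjusted p between 1.77e-04 and 0.0326, and 1 was lower. The SOX17 call was lost without ORMES10 (adjusted p = 0.0651). HNF4A had signals of 19.6 in EBs, 2.0 to 26.7 on the ES arrays and 7.0 in fibroblasts.

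Yolk sac and visceral endoderm genes (11 of 12 on the array) had 7 members in ORMES9, ORMES10 and ORMES13 above every ORMES6 and ORMES7 array (10.8% of all genes), and 1, DLK1, passed the F test (adjusted p = 0.0383, and 0.0707 without ORMES13). DLK1, a surface protein of hepatoblasts and of many mesenchymal cells, had 2887 in EBs, 1720, 3420 and 5171 in those lines, 31.8 to 182 in ORMES6 and ORMES7, and 13.4 in fibroblasts. LRP2, the megalin receptor with which visceral endoderm takes up protein, had 33.1 in EBs, 143, 54.9 and 477 in those lines, 5.3 to 13.4 in ORMES6 and ORMES7, and 9.0 in fibroblasts (adjusted p = 0.0645). None of the 11 was called between EBs and ES lines. Against the fibroblasts GPC3 was higher in ES lines (2.98 ± 0.77, adjusted p = 0.0271) and DAB2 (-2.36 ± 0.50) and CTSH (-2.29 ± 0.68) were lower. The GPC3 call was lost without ORMES9 or ORMES10, and the CTSH call in 4 of 8 fits with a line or replicate left out.

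The hepatocyte enzymes and surface proteins had no member past the F test among 20, and 3 (10.8% of all genes) with the 3 lines above the other 2. Of these 20, ASGR1, a subunit of the asialoglycoprotein receptor, was higher in EBs (2.53 ± 0.46, adjusted p = 0.0222) with 564.4 in EBs against 40.5 to 134 on the ES arrays. HPD alone was called against the fibroblasts (0.85 ± 0.25, adjusted p = 0.0452, lost in 6 of 8 fits), though it was Absent on all 5 lines, with signals of 12.4 to 26.6 there and 1.8 in fibroblasts. CPS1, G6PC1 and PCK1 were among 10 genes of this list Present in no line.

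Genes of retinol transport and use were compared because RBP4 and TTR carry retinol. Of 8 genes, CRABP1, a cellular retinoic acid binding protein, was higher in EBs than in ES lines (3.38 ± 0.72, adjusted p = 0.0362), and STRA6, the receptor of RBP4 (2.69 ± 0.51, adjusted p = 0.00775), CRABP1 and CRABP2 were higher in ES lines than in fibroblasts. The CRABP1 and CRABP2 calls were each lost in 3 or 4 of 8 fits with a line or replicate left out. STRA6 had 133 in EBs, 48.6 to 184 on the ES arrays and 2.5 in fibroblasts, while RBP4 was high in fibroblasts alone. STRA6 was Present in ORMES13 and Absent on the other lines. LRAT, the enzyme that stores retinol as ester, was Present in no line.

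Some markers of other cell types moved with the 6 genes that varied between lines. The summed signal of 8 skin fibroblast genes was 32312 in EBs, 8642 in ORMES9, 16144 in ORMES10 and 20065 in ORMES13, against 3098 to 5822 in ORMES6 and ORMES7, and 41672 in fibroblasts. LUM and COL3A1 (both adjusted p = 0.0174) and DCN (adjusted p = 0.0252, lost without ORMES13) passed the F test between lines. LUM, a proteoglycan of connective tissue, had 5882 in EBs, 1396, 2683 and 5283 in ORMES9, ORMES10 and ORMES13, 8.6 to 15.5 in ORMES6 and ORMES7, and 4156 in fibroblasts. It was thus high in EBs and fibroblasts, where FGA, FGB and FGG were low. Of the 8 genes 5 (COL1A1, COL3A1, DCN, LUM and FAP) lay in ORMES9, ORMES10 and ORMES13 above every ORMES6 and ORMES7 array, as did 10.8% of all genes. COL1A2 and THY1 were among the 3 that did not. COL1A2 had 5037 in EBs, 358, 2361 and 246 in those 3 lines, 794 to 1206 in the ORMES6 replicates, 45.3 in ORMES7 and 9100 in fibroblasts. THY1 had 2204 in EBs, 1940 to 2918 in the 3 lines, 1807 to 3819 in ORMES6 and ORMES7, and 661 in fibroblasts. The fibroblast markers FAP and PRRX1 were called lower in ES lines than in fibroblasts (differences -7.49 ± 0.71 and -5.96 ± 1.06), and THY1 was higher in ES lines (1.93 ± 0.29). FAP was also the 1 marker of the 8 called between EBs and ES lines (6.41 ± 0.71, adjusted p = 0.00453).

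The summed signal of the 20 endoderm factors was 4133 in EBs, 13644, 10048 and 10832 in ORMES9, ORMES10 and ORMES13, 3102 to 7212 in ORMES6 and ORMES7, and 7127 in fibroblasts, and that of the 11 yolk sac genes was 7589 in EBs, 5622 to 10549 in those 3 lines, 1433 to 1673 in ORMES6 and ORMES7, and 3453 in fibroblasts. The intestine also makes apolipoproteins, and for the intestinal list the sums were 300 in EBs, 291 to 1256 in the 3 lines, 94 to 122 in the other 2 and 59 in fibroblasts, with no gene of 8 called in any comparison. CDX2, a homeobox factor of intestine and trophoblast, had 46.1 in EBs, 169, 210 and 921 in the 3 lines, where it was Present, 8.2 to 45.8 in ORMES6 and ORMES7, where it was Absent, and 8.6 in fibroblasts (F test adjusted p = 0.0658). VIL1, an actin-bundling protein of absorptive epithelia counted in the yolk sac list, had 57.8 in EBs, 64.6, 98.0 and 88.9 in the 3 lines, where it was Present, 16.9 to 33.8 in ORMES6 and ORMES7, where it was not, and 18.8 in fibroblasts. FABP2, CDX1, ALPI and LGALS4 were Present in no line. The 6 pluripotency genes had summed signals of 2607 in EBs, 19226 to 25933 in ORMES9, ORMES10 and ORMES13, 21743 to 29282 in ORMES6 and ORMES7, and 71 in fibroblasts. All 6 were called lower in EBs than in ES lines and higher in ES lines than in fibroblasts, and none passed the F test between lines. The part of these other cell types in the results was not tested, nor was that of RNA from the mouse feeder cells.

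**Figure D4:**
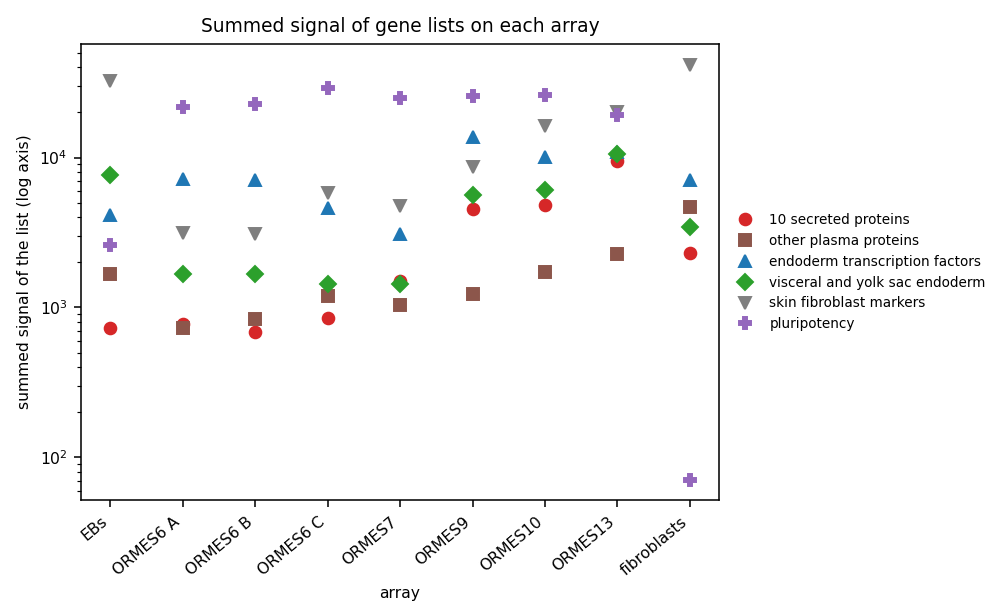
Summed signal (log axis) of 6 gene lists on each array, EBs on the left and fibroblasts on the right, with 1 point for each list and array. Points are to be compared along a list. The 10 secreted proteins sum to 734 in EBs and to 9533 in ORMES13, and the yolk sac and fibroblast lists also have their lowest points among ORMES6 and ORMES7.

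Choroid plexus and retinal pigment epithelium also make TTR. Of 8 choroid plexus genes 3 were called against the fibroblasts, where 20.8% of all genes were. OTX2 (7.41 ± 0.47) and FOLR1 (2.81 ± 0.60) were higher in ES lines, and CLIC6 (-4.08 ± 0.80) was lower. FOLR1 was Present in ORMES13 alone among the lines. KCNJ13, KL and PRLR were Present in no line, and no gene of the list was called between EBs and ES lines or between lines. CLIC6 and AQP1, 2 of the 8, lay in ORMES9, ORMES10 and ORMES13 above every ORMES6 and ORMES7 array (10.8% of all genes), AQP1 with 62.7 in EBs, 48.8, 53.7 and 163 in those lines, 4.1 to 22.7 in ORMES6 and ORMES7, and 111 in fibroblasts. The summed signal of the list was 1638 in EBs, 3682 to 7111 in ORMES9, ORMES10 and ORMES13, 2730 to 3653 in ORMES6 and ORMES7, and 876 in fibroblasts. OTX2, Present in all 5 lines, made up 1306 of this sum in EBs and 2457 to 6740 of it on the ES arrays. In fibroblasts CLIC6 made up 685 of it. Of 8 genes of the pigment epithelium, SERPINF1 was higher in EBs than in ES lines (2.37 ± 0.41, adjusted p = 0.0186) and lower in ES lines than in fibroblasts (-2.53 ± 0.41), and PMEL was higher in ES lines than in fibroblasts (2.77 ± 0.31). The sums of that list were 3278 in EBs, 1491 to 1758 in ORMES9, ORMES10 and ORMES13, 1616 to 2057 in ORMES6 and ORMES7, and 2134 in fibroblasts, and RPE65, BEST1, RLBP1, TYR and DCT were Present in no line. MITF of that list had 95.9 in EBs, 75.2, 70.1 and 303 in ORMES9, ORMES10 and ORMES13, 30.6 to 59.9 in ORMES6 and ORMES7, and 345 in fibroblasts. PMEL made up 1751 of the sum in EBs and 1033 to 1729 of it on the ES arrays.

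The genes most like the 10 were sought among 2211 other genes with an SD of at least 1 log2 unit over the 7 values, by Pearson's r with the mean log2 level of the 10. APOB came first (r = 0.979), and PLG, the precursor of the fibrin-cleaving enzyme plasmin, ranked 4 (r = 0.967). PLG had 11.8 in EBs, 50.4, 205 and 183 in ORMES9, ORMES10 and ORMES13, at most 24.3 in ORMES6 and ORMES7, and 11.2 in fibroblasts. The others were MRVLDC3 (0.974), the sodium channel subunit SCNN1A (0.970), MARVELD3 (0.954), FLJ46675 (0.951), LOC93622 (0.951), the heme enzyme ALAS2 (0.947), ANXA9 (0.946) and the GABA receptor subunit GABRP (0.939). MRVLDC3 and MARVELD3 were counted apart because the array annotation gives different symbols, and whether these name the same gene was not checked. ALAS2 and GABRP passed the F test between lines (adjusted p = 0.0383 for each). ALAS2 had 24.5 in EBs, 616, 405 and 651 in the 3 lines, 14.9 to 24.1 in ORMES6 and ORMES7, and 46.5 in fibroblasts. These values of r were picked as the highest of many over 7 points and describe likeness of pattern only.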

How the data were processed

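Total RNA of 9 samples was hybridised to Affymetrix Rhesus arrays, 1 array each. Signal intensity was deposited by the authors on a linear scale, made with MAS5 per the submitters' processing notes (its version is not stated), and the 2% trimmed mean lay between 200.014 and 200.028 on all arrays. Log2 ratios (signal log ratios, ES over EB) and detection p-values were deposited by the authors too, per the file headers. The number of arrays limits the precision. From 52865 probe sets 99 controls and 3 with missing values were left out, and 40578 of the other 52763 carried a symbol (19762 genes; 465 old symbols updated). The probe set with the highest mean stood for the gene. A further 137 columns of per-sample values were not used, nor were the EB detection calls.

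Values were taken as log2(signal + 16) and fitted with limma 3.58.1 in R 4.3.3 (lmFit, eBayes with a variance trend), with ORMES6 replicates averaged, the 5 lines as replicates and EBs and fibroblasts as single arrays taken to share the spread of the lines (4 residual degrees of freedom). P-values were adjusted by Benjamini-Hochberg over all genes and called below 0.05. They rest on the spread between lines, drawn by eBayes toward that of genes of like level (4.38 prior degrees of freedom). Lines were compared with an F test on the 7 ES arrays (2 residual degrees of freedom). The fits were tested on simulated data. The 10 genes and all lists were chosen with earlier results of these data known. Named were all 10 genes, of each other list up to 4 called genes with the largest differences a comparison (the 2 largest where none was called), and the 10 most alike; other list genes are named for their values or for being Present in no line, after these were seen. Alternatives were other offsets, scaling, a level filter, probe set averaging, no variance trend, a spike covariate and leaving out lines or replicates. Some list genes are not reported here.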

Additional observations from a re-analysis of the deposited data

Results flagged for a closer look

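RBP4 in ORMES9 stood apart from the other 4 ES lines. Its level there was 4.74 on the log2(signal + 16) scale, against 4.10 to 4.15 in the other lines, and the gap took 0.923 of the whole range. The signal was 10.8, called Absent, and the second RBP4 probe set gave 3.5 in ORMES9, within the range of the other ES arrays. Chance alone marks about 1 in 20 groups in this way.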

How the results depend on the processing

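No paired analysis was possible because only ORMES6 has replicates, so that no 2 groups share replicate numbers. Of the 10 genes, 1 was called between EBs and ES lines, and 0 with the mean over all probe sets or with the spike covariate; leaving out a line or replicate gave 0 to 1. Between ES lines and fibroblasts 1 was called, 3 with an offset of 1, 2 with only probe sets of signal 100 or more on an array, 2 with the spike covariate, and 1 to 2 with a line or replicate left out. Between lines 3 passed, 2 with an offset of 1 or quantile normalization (TTR adjusted p = 0.0796 and 0.0533), 5 with an offset of 64, 5 with arrays centred on their medians, and 1 to 7 with a line or replicate left out; without ORMES6 the F test could not be fitted, as no replicates remain. The cause of these changes was not tested. No called difference changed sign under any alternative run, and the differences of the 10 genes that did so were not called. Over all genes, EB against ES calls numbered 1120, 784 with the mean over probe sets, 0 with the spike covariate and 454 without ORMES10; they numbered 634, 613 and 671 without ORMES7, ORMES9 and ORMES6 replicate C. Calls between lines numbered 39, 109 with an offset of 64, 133 with median centring, 84 with the level filter, 59 without ORMES10, 75 without ORMES7, 17 without ORMES13 or ORMES6 replicate B and 7092 without ORMES6 replicate C. Higher and lower calls of ES against fibroblasts were 2561 and 1559, and 1710 and 2125 with median centring; for EBs against ES lines they were 574 and 546, 376 and 544 with an offset of 1, and 490 and 294 with the mean over probe sets. With 1 array a line, spread within ORMES9, ORMES10 and ORMES13 is unknown.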

Other observations

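Some of the 10 genes lie near each other in the macaque genome. In the RefSeq annotation of assembly T2T-MMU8v2.0 PLRG1, FGB and FGA follow each other, FGG comes after FGA with 1 further gene between them, and LRAT lies beyond FGG after another. PLRG1, a splicing factor, had 1356 in EBs, 938 to 1781 on the ES arrays and 800 in fibroblasts, and neither PLRG1 nor LRAT passed the F test between lines (adjusted p = 0.448 and 0.286). AFP lies between AFM and ALB. AFM had 3.8 in EBs, 1.1 to 20.0 on the ES arrays and 1.2 in fibroblasts, so that AFP was the 1 of these 3 neighbours with signals above 100. APOA1 and APOC3 adjoin APOA4 and APOA5, and APOA1 alone of the 4 passed the F test. TTR lies beside B4GALT6 and DSG2, a desmosomal cadherin, and DSG2 had 743 in EBs, 4053, 4597 and 5412 in ORMES9, ORMES10 and ORMES13, 1609 to 3093 in ORMES6 and ORMES7, and 262 in fibroblasts (F test adjusted p = 0.246).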
